A study of Arabidopsis thaliana with 6 samples.

Results

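The 10 genes described here encode the TGA1 to TGA6 transcription factors, the salicylic acid-binding proteins NPR1, NPR3 and NPR4, and the GRAS protein SCL14. They were chosen by gene identifier, and all 10 were found among the 24340 genes of the deposited table. RNA had been sequenced from micro-dissected shoot apices of *Arabidopsis thaliana* *ap1/cal* plants after 24 h of treatment, with 3 mock samples and 3 SNP samples. Both groups carried the *ap1* and *cal* mutations and received 0.025% Silwet, a wetting agent, and the SNP group also received 1 mM SNP. SNP is sodium nitroprusside, a compound that releases nitric oxide (NO) and that also contains iron and cyanide. In these mutants meristems form in place of flowers and pile up without developing further, so the tissue is rich in meristem cells but is not a wild-type apex. The comparison asked which transcripts of the apex respond to an NO donor.

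TGA factors are bZIP proteins that bind DNA at the bases TGACG. NPR1 is a co-activator that has no DNA-binding domain of its own and reaches its targets through TGA factors, and it is needed for most of the transcriptional response to salicylic acid. NPR3 and NPR4 also bind salicylic acid and act as repressors of the same defence genes, while SCL14 joins TGA2, TGA5 and TGA6 at promoters of detoxification genes. The pathway is a classical target of redox and NO signals, because NPR1 oligomers are held together by disulfide bonds and can be S-nitrosylated, and because cysteines of TGA1 can be oxidised or S-nitrosylated as well.

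The cysteines of *TGA1* set this gene and *TGA4* apart from the other TGA genes. In an alignment of the longest coding sequences of the 6 TGA genes, taken from the RefSeq annotation of TAIR10.1, *TGA1* had cysteine codons at positions 172, 260, 266 and 287. *TGA4* shared the codons at 172, 260 and 266, and *TGA2*, *TGA3*, *TGA5* and *TGA6* had no cysteine at any of the 4 positions. Codons 260 and 266 of *TGA1* are the pair known to form an intramolecular disulfide bond in the oxidised protein. The aligned stretches around this pair are shown 5′ to 3′ with cysteine codons in capitals, since they mark the difference between the TGA1 and TGA4 pair and the other factors.
TGA1, codons 257 to 269: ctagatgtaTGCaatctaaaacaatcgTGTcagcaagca
TGA4, codons 253 to 265: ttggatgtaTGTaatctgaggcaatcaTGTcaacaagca
TGA2, codons 215 to 227: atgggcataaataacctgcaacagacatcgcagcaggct
TGA5, codons 215 to 227: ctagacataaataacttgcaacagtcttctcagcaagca
TGA6, codons 240 to 252: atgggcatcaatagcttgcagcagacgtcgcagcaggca
TGA3, codons 271 to 283: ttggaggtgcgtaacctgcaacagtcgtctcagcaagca
Both capitals of *TGA1* recur in *TGA4*, and the other 4 stretches have none.

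Expression was deposited as TPM, the reads of a gene divided by its length and scaled to the same sum in every sample, so that levels can be compared between genes as well as between samples. Within each sample the values fell on multiples of the value of 1 read, from which a depth of 51879527 to 99089584 counted reads was recovered, and the 10 genes had between 132 and 14502 reads in a sample. Mock replicate 1 stood apart from the other samples. Its correlation with the other mock samples across tested genes was 0.977, while that between the other two was 0.991, and the longest of 5 length classes of genes deviated from the mean of the 6 samples by a median log2 value of -0.43 in it and of 0.04 to 0.14 elsewhere. Where this sample decided a call, the value without it is given too, as it is for some of the values that it moved. No 75-base window along the exons of the 10 genes occurred a second time in the genome, so that the TGA and NPR paralogs had no shared stretches of read length. The apex identity of the samples was checked on *STM*, *CLV3*, *UFO*, *LFY* and *KNAT1*, which summed to 280.7 to 331.9 TPM in mock and 281.7 to 324.8 TPM in SNP samples, and of which *UFO* was called higher, though not without SNP replicate 1 or 3 (adjusted p of 0.0656 and 0.0533). The root markers *EXPA7*, *COBL9* and *PHT1;1* summed to at most 0.0354 TPM. Of 4 vascular markers, *SUC2* and *XCP1* were called higher after SNP, *SUC2* not without SNP replicate 3 (adjusted p = 0.0538). The log2 fold change of *SUC2* was 1.07, or 0.81 without mock replicate 1. The 4 vascular markers summed to 55.7 to 77.0 TPM in mock and 100.9 to 127.2 TPM in SNP samples. Of 4 mesophyll markers, *CAB3* and *LHCB2.1* were called lower, *CAB3* not without mock replicate 3 or SNP replicate 3 (0.0548 and 0.07) and *LHCB2.1* not without mock replicate 3, SNP replicate 1 or SNP replicate 3 (0.0657, 0.068 and 0.058), while the list, which is mostly *RBCS1A*, summed to 2451 to 3476 and 3020 to 3843 TPM. By the limit given below, 16.6% of all tested genes were called higher and 13.0% lower. The part of the marker tissues in the changes below was not tested. In such bulk samples, fewer cells of a type and less RNA per cell cannot be told apart.

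After SNP 5 of the 10 genes rose and 0 fell, at a limma adjusted p under 0.05 in a fit of log2(TPM + 0.5) over all 18966 genes whose mean reached 0.5 TPM. They were *TGA1*, *TGA4*, *TGA6*, *NPR3* and *SCL14*. Over all tested genes 16.6% were called higher and 13.0% lower by the same limit. The higher genes made up 56.1% of these calls, 46.4% after scaling each sample by its 75th percentile and 49.6% without mock replicate 1, so that the direction of the majority depended on these settings. With the second rule, which asks for a change of 1.5-fold or more at a p under 0.01 before adjustment, *TGA1*, *TGA4* and *SCL14* were called higher, while 10.5% of all tested genes were called higher and 6.40% lower. The share of higher genes among all calls by the second rule was 62.1% with the values as deposited and 51.3% after the 75th percentile scaling. In 8 of the 10 genes every SNP value lay above every mock value, a pattern held by 29.2% of the tested genes, and *TGA2* and *TGA3* were the exceptions. The median log2 fold change was 0.51 for the 10 genes and 0.06 for all tested genes. Without mock replicate 1, 6 of the 10 genes were called, with *NPR4* added, beside 7949 of 19001 tested genes. Without SNP replicate 1 or without SNP replicate 3, 3 of the 10 were called, namely *TGA1*, *TGA4* and *SCL14*. These 2 fits called 2988 of 18953 and 2872 of 18945 tested genes, so the counts moved over all genes too.

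**Figure D1:**
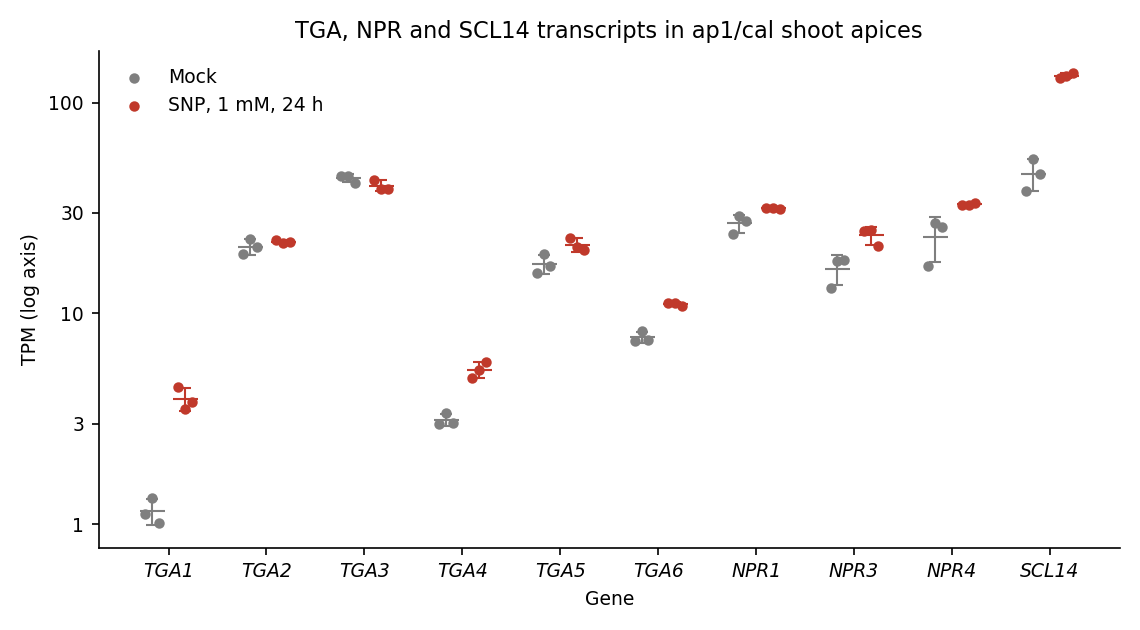
Transcript levels of the 10 genes in TPM on a log axis, with 1 point per sample, the mean as a horizontal mark and the SD as an error bar, for 3 mock samples (grey) and 3 SNP samples (red). *SCL14* moved from 38.2 to 54.1 TPM in mock to 130.5 to 137.8 TPM in SNP samples, while the points of *TGA2* and of *TGA3* overlap between the groups.

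*SCL14* (AT1G07530), the partner of the TGA2, TGA5 and TGA6 proteins in detoxification, had the largest change of the 10 genes on the log2(TPM + 0.5) scale. *TGA1* had the larger ratio of means and the larger log2 fold change with a pseudocount of 0.1 (1.69 against 1.55). *SCL14* measured 38.2, 54.1 and 45.7 TPM in mock replicates 1, 2 and 3, and 130.5, 133.5 and 137.8 TPM in SNP replicates 1, 2 and 3. All SNP samples were far above all mock samples and close to each other. The means were 46.0 ± 7.96 TPM (SD, n = 3) and 134.0 ± 3.67 TPM (SD, n = 3), a 2.91-fold increase. On the log2(TPM + 0.5) scale the fold change was 1.55 ± 0.13 (SE), with a limma adjusted p of 0.0004. The call held in all 17 alternative fits, with log2 fold changes from 1.42 to 1.67. Its level over the 6 samples was higher than that of 88.2% of the tested genes.

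*TGA1* (AT5G65210) and *TGA4* (AT5G10030), which encode the pair with the conserved cysteines and which are known for roles in defence and in the nitrate response of roots, were the least abundant of the 10 genes, and both rose. *TGA1* measured 1.11, 1.33 and 1.01 TPM in mock samples and 4.48, 3.52 and 3.78 TPM in SNP samples. Every SNP sample had more than 2 times the *TGA1* level of every mock sample. From 1.15 ± 0.164 to 3.93 ± 0.495 TPM (SD, n = 3 each), this was a 3.41-fold increase, and the log2 fold change was 1.42 ± 0.15 (SE) with an adjusted p of 0.000936. These values rest on 132 to 496 reads per sample, the fewest of the 10 genes. *TGA4* measured 2.99, 3.37 and 3.02 TPM in mock and 4.93, 5.37 and 5.87 TPM in SNP samples. The increase of *TGA4* was smaller than that of *TGA1*, and its groups did not overlap either. It rose 1.72-fold, from 3.13 ± 0.212 to 5.39 ± 0.472 TPM (SD, n = 3 each), with a log2 fold change of 0.70 ± 0.12 (SE) and an adjusted p of 0.00684. Both genes were called in all 17 alternative fits.

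*TGA2* (AT5G06950), *TGA5* (AT5G06960) and *TGA6* (AT3G12250) encode redundant factors that are needed for systemic acquired resistance and for the detoxification response. Of the 3 genes only *TGA6* was called. *TGA6* measured 7.38, 8.26 and 7.52 TPM in mock and 11.3, 11.2 and 10.8 TPM in SNP samples, so that the lowest SNP sample was above the highest mock sample. It rose 1.44-fold, from 7.72 ± 0.475 to 11.1 ± 0.239 TPM (SD, n = 3 each), with a log2 fold change of 0.50 ± 0.10 (SE) and an adjusted p of 0.0109. Without SNP replicate 1 or 3 the adjusted p was 0.0572 or 0.0543, with log2 fold changes of 0.49 and 0.52. *TGA5* was also separated between the groups, but by a narrower gap. It measured 15.5, 19.1 and 16.8 TPM in mock and 22.9, 20.7 and 20.003 TPM in SNP samples, with a log2 fold change of 0.30 ± 0.11 (SE) and an adjusted p of 0.0834. Removing the trend along gene length from each sample gave 0.28 with an adjusted p of 0.0437. Only 1 of 17 alternative fits, this one, called *TGA5*, and its adjusted p reached 0.267 in the others. *TGA2* had overlapping groups, at 19.1, 22.5 and 20.6 TPM in mock and 22.4, 21.5 and 21.9 TPM in SNP samples. Its log2 fold change was 0.08 ± 0.10 (SE), with an adjusted p of 0.549, and was -0.0018 after 75th percentile scaling. *TGA2* and *TGA5* are next to each other on the chromosome, with no annotated gene between them.

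*TGA3* (AT1G22070), a factor that binds NPR1 and contributes to basal defence, was the most abundant TGA transcript in both groups. It measured 45.0, 45.1 and 41.6 TPM in mock and 43.2, 38.9 and 39.0 TPM in SNP samples. The groups overlapped, since SNP replicate 1 was above mock replicate 3. The means were 43.9 ± 2.03 and 40.4 ± 2.46 TPM (SD, n = 3 each), with a log2 fold change of -0.12 ± 0.09 (SE) and an adjusted p of 0.328.

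The NPR genes stood higher in every SNP sample than in any mock sample, a pattern held by 29.2% of the tested genes. Of these NPR genes *NPR3* was called. *NPR3* (AT5G45110) measured 13.2, 17.8 and 17.9 TPM in mock and 24.7, 25.0 and 20.9 TPM in SNP samples. Mock replicate 1 was the lowest of its group and SNP replicate 3 the lowest of the other, and the groups did not overlap. The increase was 1.44-fold, from 16.3 ± 2.67 to 23.5 ± 2.29 TPM (SD, n = 3 each), with a log2 fold change of 0.52 ± 0.15 (SE) and an adjusted p of 0.035. The call was lost without mock replicate 3 or without any 1 of the SNP replicates, where the adjusted p was 0.0516 to 0.122. Without mock replicate 1 the call was kept, with a smaller log2 fold change of 0.38 and an adjusted p of 0.0198. *NPR4* (AT4G19660) measured 16.8, 26.8 and 25.8 TPM in mock and 32.6, 32.9 and 33.4 TPM in SNP samples. Its SNP values lay within 1 TPM of each other, and the low mock replicate 1 widened the spread of the mock group. With a log2 fold change of 0.53 ± 0.18 (SE) *NPR4* had an adjusted p of 0.0621. With that sample left out, *NPR4* was called, at a smaller 0.32 with an adjusted p of 0.0079, in a fit that called 7949 of 19001 genes. It was also called after removal of the length trend, at 0.45 with an adjusted p of 0.0131, and after median-of-ratios and 75th percentile scaling, with adjusted p-values of 0.0355 and 0.0493. Of 17 alternative fits 7 called *NPR4*, and its adjusted p reached 0.165 in the others. *NPR1* (AT1G64280), the co-activator, measured 23.9, 29.1 and 27.3 TPM in mock and 31.8, 31.6 and 31.5 TPM in SNP samples. The *NPR1* means of 26.8 ± 2.63 and 31.6 ± 0.183 TPM (SD, n = 3 each) differed 1.18-fold and the gene was not called, with a log2 fold change of 0.24 ± 0.10 (SE) and an adjusted p of 0.107.

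**Figure D2:**
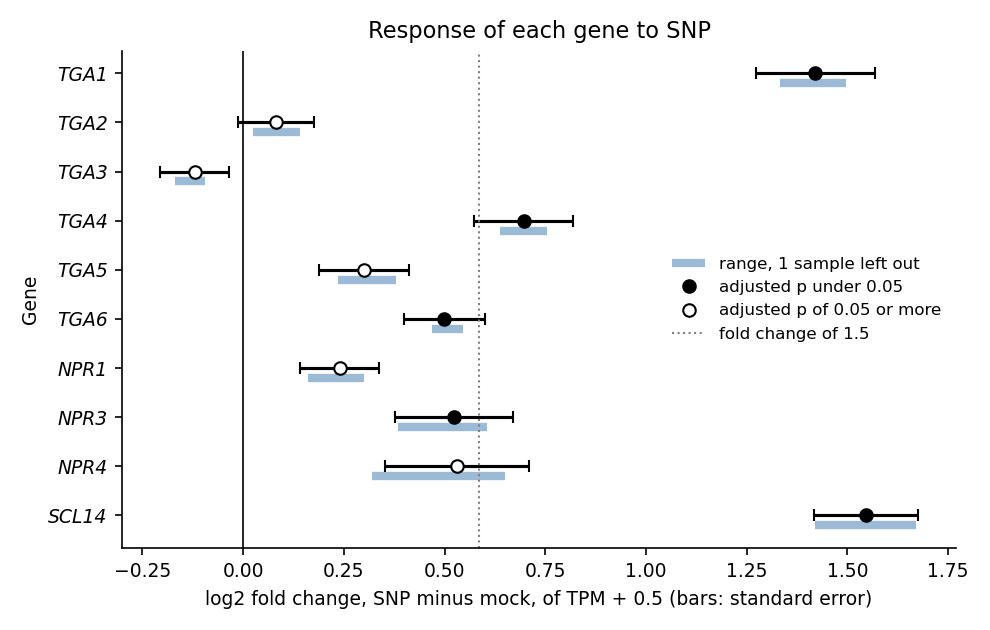
Log2 fold change of each gene, SNP minus mock, on the log2(TPM + 0.5) scale, with the limma standard error as a bar, filled points for an adjusted p under 0.05, and a blue band for the range over the fits that leave out 1 sample. *SCL14* at 1.55 and *TGA1* at 1.42 lie well to the right of the other genes, and the band of *NPR4* is the widest, from 0.32 to 0.65.

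Ordered by their mean level in mock samples, the genes ran from *SCL14* and *TGA3* through *NPR1*, *NPR4*, *TGA2*, *TGA5* and *NPR3* to *TGA6*, *TGA4* and *TGA1*. The ranges of *SCL14* and *TGA3* overlapped in mock samples, as did those of *NPR1* and *NPR4*, of *NPR4* and *TGA2*, and of *TGA5* and *NPR3*. After SNP the order was *SCL14*, *TGA3*, *NPR4*, *NPR1*, *NPR3*, *TGA2*, *TGA5*, *TGA6*, *TGA4* and *TGA1*. Here *SCL14* was clear of *TGA3*, and the neighbours whose ranges overlapped were *NPR3* with *TGA2* and *TGA2* with *TGA5*. *NPR3* thus moved from the seventh to the fifth place, and the places of the least abundant genes stayed as they were.

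Ratios within a sample do not depend on how samples were scaled, and 9 of them were compared. The *SCL14* level was about equal to the summed level of *TGA2*, *TGA5* and *TGA6* in mock samples, with ratios of 0.909, 1.08 and 1.02, and it was 2.31, 2.50 and 2.61 times that sum in SNP samples. The ratio of *TGA1* plus *TGA4* to the same sum went from 0.0940 ± 0.00398 to 0.172 ± 0.00969 (SD, n = 3 each), a difference of 0.87 on the log2 scale. Between the paralogs, *TGA1* to *TGA4* had ratios of 0.372, 0.395 and 0.334 in mock and 0.908, 0.656 and 0.644 in SNP samples. The ratio of *TGA2* to *TGA6* was 2.68 ± 0.0843 in mock and 1.97 ± 0.0532 in SNP samples, and that of *TGA2* to *TGA5* was 1.21 ± 0.0256 and 1.04 ± 0.0578 (SD, n = 3 each). The ratio of *NPR1* to *NPR4* was above 1 in all mock samples, at 1.43, 1.08 and 1.06, and below 1 in all SNP samples, at 0.977, 0.961 and 0.941. *NPR3* to *NPR4* had ratios of 0.716 ± 0.0657 and 0.715 ± 0.0780 (SD, n = 3 each), and here the groups overlapped. In 8 of the 9 ratios the groups did not overlap, and the two-sided exact permutation p was 0.1, the smallest that 3 against 3 samples can give, or 0.113 after Benjamini-Hochberg adjustment over the 9 ratios. For *NPR3* to *NPR4* this p was 1.

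The summed level of the 6 TGA genes was 93.8 ± 5.15 TPM in mock and 103.9 ± 4.55 TPM in SNP samples (SD, n = 3 each), and its make-up differed between the groups. *TGA3* supplied 46.9 ± 2.22% of the sum in mock samples and 38.8 ± 0.645% in SNP samples (SD, n = 3 each). The share of *TGA1* went from 1.23 ± 0.110% to 3.77 ± 0.314%, that of *TGA4* from 3.34 ± 0.0502% to 5.20 ± 0.645%, and that of *TGA6* from 8.23 ± 0.117% to 10.7 ± 0.389%. The groups did not overlap in these 4 shares. They did not overlap in the share of *TGA5* either, at 17.0 to 19.1% in mock and 19.7 to 21.0% in SNP samples. *TGA1* and *TGA4* together still held less of the pool than *TGA6* alone after SNP. The summed level of the 3 NPR genes was 66.2 ± 10.8 TPM in mock and 88.1 ± 1.996 TPM in SNP samples (SD, n = 3 each).

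**Figure D3:**
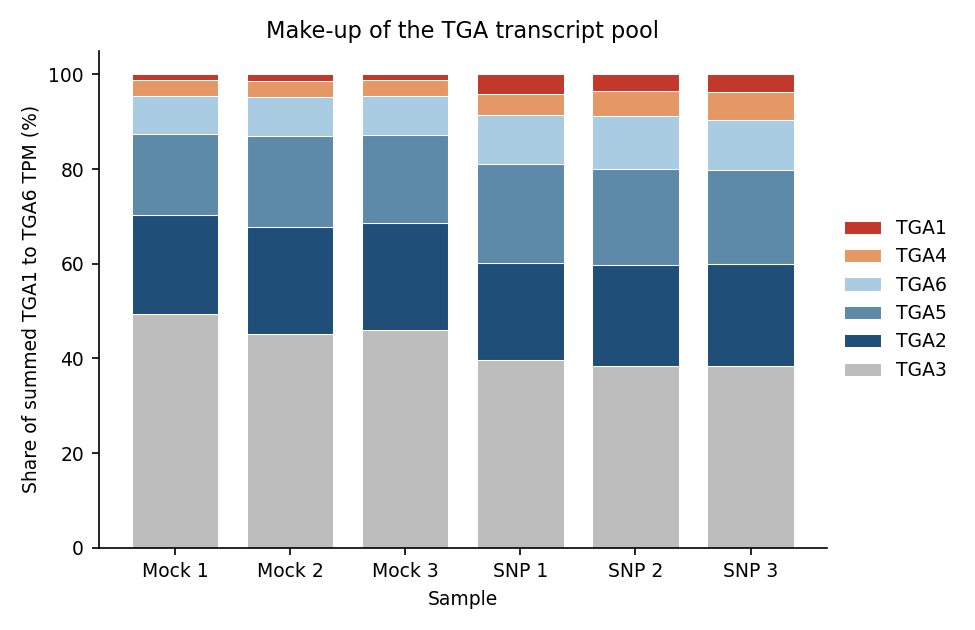
Make-up of the TGA transcript pool, as the share of each gene in the summed TPM of *TGA1* to *TGA6*, with 1 stacked bar per sample. *TGA3* (grey) took 45.3 to 49.4% of the pool in mock samples and 38.5 to 39.6% in SNP samples, and the thin segments of *TGA1* and *TGA4* at the top were thicker in all SNP samples.

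Genes related to the 10 were read from lists of family members, partners and targets, by their counts of calls. Among the other TGA genes, 0 of 4 were called in either direction, beside 29.6% of all tested genes. *TGA7*, the closest relative of *TGA3*, measured 3.57, 5.72 and 5.33 TPM in mock and 6.76, 6.74 and 7.18 TPM in SNP samples, with a log2 fold change of 0.48 and an adjusted p of 0.0794, or 0.30 and 0.0456 without mock replicate 1. *PERIANTHIA* (*PAN*), which controls floral organ number and is active in floral meristems, had a log2 fold change of -0.28 (adjusted p = 0.209) and overlapping groups. Without mock replicate 1, its lowest mock value, *PAN* was called lower, at -0.45 with an adjusted p of 0.00358. *TGA9* and *TGA10*, which act in anthers, stayed at or below 1.33 TPM in all samples. Among NPR relatives, *BOP1* and *BOP2*, which act at organ boundaries, were present at 7.65 to 10.5 TPM and 19.1 to 34.2 TPM, with overlapping groups and adjusted p-values of 0.71 and 0.685. AT4G26120, an ankyrin repeat and BTB domain protein, was below the limit for testing at 0.161 to 0.577 TPM.

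Of the GRAS genes listed beside *SCL14*, 4 were tested and 2 were called higher, beside 16.6% of all tested genes. AT3G46600 measured 19.4, 38.8 and 38.2 TPM in mock and 68.6, 80.3 and 70.5 TPM in SNP samples. Its log2 fold change was 1.24 ± 0.26 (SE) with an adjusted p of 0.0128, or 0.91 and 0.000634 without the low mock replicate 1. AT2G37650 had a log2 fold change of 0.58 (adjusted p = 0.00945), which was 0.0507 without SNP replicate 1 and 0.052 without SNP replicate 3. AT1G07520, the gene next to *SCL14*, was not analysed here. Across the 6 samples the genes most like *SCL14* on the log2 scale were *MEE51* (AT4G04040), AT1G47530 and AT2G37480, with Pearson correlations of 0.9994, 0.9994 and 0.9992. The 6 samples form 2 groups that share this step, and 261 genes had correlations above 0.99, so these values are a description only.

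Among 10 tested partners of NPR and TGA proteins, 2 were called higher and 0 lower, beside 16.6% and 13.0% of all tested genes. *NIMIN3*, an NPR1-interacting protein that dampens its activity, had a log2 fold change of 0.50 (adjusted p = 0.029). This call was lost in 7 of 17 alternative fits, both scalings among them. *GRXS13*, a glutaredoxin of the type that binds TGA factors, had a log2 fold change of 0.75 (adjusted p = 0.0149), on 19 to 66 reads. Its call was lost without SNP replicate 1 or 3, at adjusted p-values of 0.0612 and 0.0576. *GRX480*, another TGA-binding glutaredoxin, had 0.51 with an adjusted p of 0.118. *NIMIN1*, an early salicylic acid-induced gene, had -0.84 with an adjusted p of 0.183, with SNP values from 2.67 to 10.7 TPM. *HAC1*, a histone acetyltransferase recruited by NPR1, had 0.72 with an adjusted p of 0.172, and its mock replicate 1 at 12.5 TPM was far below the others at 31.2 and 35.2 TPM. Without that sample *HAC1* had 0.27 with an adjusted p of 0.0701, and with the length trend removed it was called, at 0.44 with 0.0181. Of 5 redox enzymes that act on NPR1 or TGA1, *TRXH5*, the thioredoxin that reduces NPR1, was called higher. It measured 126.9, 93.7 and 91.9 TPM in mock and 231.7, 182.9 and 231.4 TPM in SNP samples, with a log2 fold change of 1.05 ± 0.16 (SE) and an adjusted p of 0.00387. *NTRB*, a thioredoxin reductase, was called lower at -0.61 with an adjusted p of 0.0136, a call lost without SNP replicate 1 or 3, at 0.0616 and 0.0607. The more abundant thioredoxin *TRXH3* had -0.18 with an adjusted p of 0.419, and *GSNOR1*, which encodes the S-nitrosoglutathione reductase that limits protein S-nitrosylation, had -0.02 with an adjusted p of 0.91.

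The list for the salicylic acid response holds NPR1-dependent genes and also genes of salicylic acid synthesis and its regulation, *CBP60G* among them. It had 2 of 10 tested genes called higher and 1 lower, shares near the 16.6% and 13.0% of all tested genes. *PR2*, a secreted glucanase, measured 2.13, 1.28 and 2.29 TPM in mock and 43.5, 13.7 and 24.4 TPM in SNP samples, with a log2 fold change of 3.41 ± 0.40 (SE) and an adjusted p of 0.00149. *PR1*, the usual marker of this response, was uneven within the SNP group. It measured at most 0.304 TPM in mock and 24.4, 0.443 and 12.5 TPM in SNP samples, and its log2 fold change was 3.27 (adjusted p = 0.0628). Leaving out SNP replicates 1, 2 or 3 gave *PR1* log2 values of 2.33, 4.69 and 2.80 with adjusted p-values of 0.166, 0.0008 and 0.181, and it was also called with the length trend removed (0.0415) and with a pseudocount of 0.1 (0.0486). *PR5* had the same order of SNP samples, at 80.9, 9.65 and 36.2 TPM, with a log2 fold change of 1.88 (adjusted p = 0.0784). Without SNP replicate 2 it was called, at 2.69 with an adjusted p of 0.00653. SNP replicate 2 was also the lowest SNP sample for *TGA1* and *TRXH5*, by smaller margins, but not for *SCL14* or *NPR3*. *CBP60G*, a calmodulin-binding regulator of salicylic acid synthesis, was called higher at 0.96 with an adjusted p of 0.00588. *WRKY54*, a negative regulator of salicylic acid synthesis, was called lower at -1.24 with an adjusted p of 0.0349, a call lost in 5 of 17 alternative fits. Without mock replicate 1 *WRKY54* had -1.60 with an adjusted p of 0.00353. *WRKY70*, its close relative, had -0.18 with an adjusted p of 0.64, or -0.48 with 0.0435 without mock replicate 1.

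All 6 listed detoxification targets of SCL14 and its TGA partners were called higher, beside 16.6% of all tested genes. Their median log2 fold change was 4.23. The list was made with earlier results of these data known, the increase of *CYP81D11* among them, so it is not independent of them. *GSTU7*, a glutathione transferase, measured 36.3, 27.9 and 28.7 TPM in mock and 176.9, 206.8 and 249.97 TPM in SNP samples, a log2 fold change of 2.75 ± 0.16 (SE). The related transferases *GSTU24* and *GSTU25* had 4.33 and 4.40, the transcription factor gene *NAC032* had 3.22, and AT5G61820, annotated as a stress up-regulated Nod 19 protein, had 4.13. The largest was that of *CYP81D11*, a cytochrome P450, at 7.11, and the adjusted p-values of the 6 genes were 0.000321 or less. The nitrate transporter gene *NRT2.1*, a target of TGA1 and TGA4 in roots, was below the limit for testing at up to 0.0727 TPM.

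**Figure D4:**
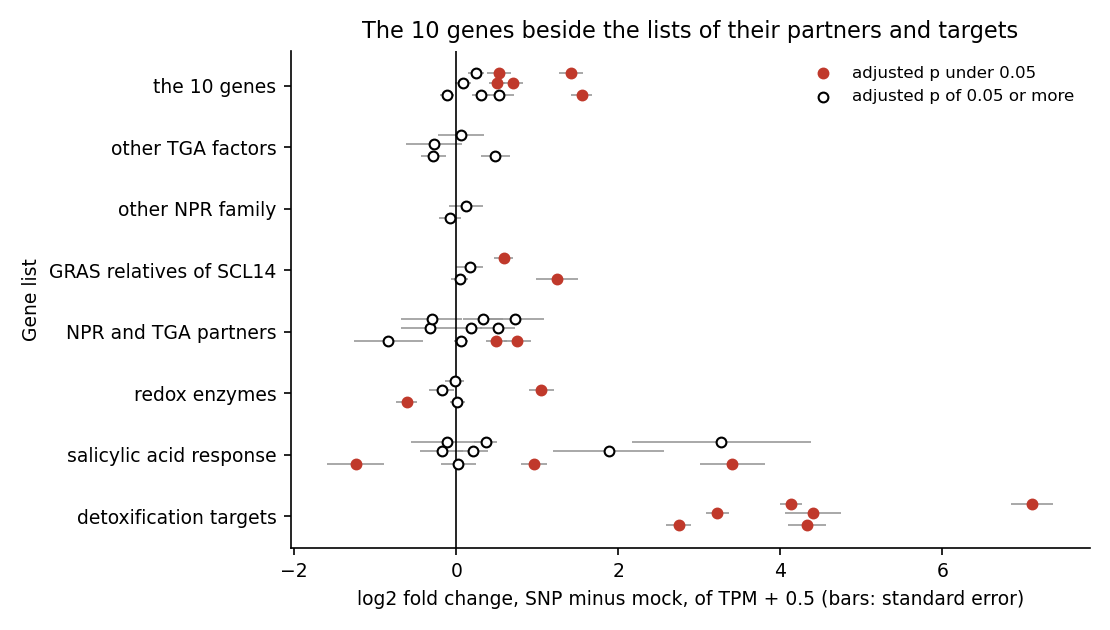
Log2 fold changes, SNP minus mock, on the log2(TPM + 0.5) scale for the tested genes of each list, with the limma standard error as a bar and red points for an adjusted p under 0.05. The 6 detoxification targets lie between 2.75 and 7.11, above the 10 genes, whose highest value is 1.55, while the salicylic acid list spreads from -1.24 to 3.41.

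The bases TGACG were searched on both strands in the 250 bases before the annotated start of each gene, where the other strand reads CGTCA, and overlapping matches were counted. They occurred before 4 of the 10 genes, 5 of the 6 detoxification targets and 18.5% of 27561 protein-coding genes. *TGA4*, *TGA6* and *NPR3* had 1 match each, and *NPR4* had 2 within 20 bases, an arrangement before 1.15% of all protein-coding genes. The matches before these 4 genes are shown with 15 bases on each side, read along the gene's strand in TAIR10.1, with the matched bases in capitals.
TGA4: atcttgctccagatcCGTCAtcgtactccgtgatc
TGA6: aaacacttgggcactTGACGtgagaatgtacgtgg
NPR3: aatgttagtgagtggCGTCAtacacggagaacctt
NPR4: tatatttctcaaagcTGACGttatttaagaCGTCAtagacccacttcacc
For comparison, *GSTU7* held 3 matches, a pair of which overlap as TGACGTCA, and *GSTU24* held 1.
GSTU7: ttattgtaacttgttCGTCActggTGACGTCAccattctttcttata
GSTU24: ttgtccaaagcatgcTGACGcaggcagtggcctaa
*SCL14*, *TGA1*, *TGA2*, *TGA3*, *TGA5* and *NPR1* had no match in this window. Genes with a match, such as *NPR3*, and genes without one, such as *SCL14* and *TGA1*, were both among those called higher after SNP. A match is a string of letters, and binding was not measured here. The windows were not trimmed at neighbouring genes, so a match may lie inside another gene.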

How the data were processed

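Poly(A)-selected libraries that keep strand were sequenced, STAR was used for alignment against TAIR10, and the authors deposited the TPM of 24340 genes per sample. The counting tool is not given in the sources used here. The deposited table also holds the authors' log2 fold changes and p-values, which were not used. TPM multiplied by TAIR10.1 merged exon length gave whole multiples of a step for 99.4% of values within 0.05, over 24184 genes, and reads were counted in these steps. TPM calls for no count model. Genes whose mean reached 0.5 TPM were tested with limma 3.58.1 in R 4.3.3 (lmFit, eBayes with trend, no block) on log2(TPM + 0.5), with Benjamini-Hochberg adjustment, a fit that was tested on simulated data. Fold changes on this scale understate those of low genes. Sequences came from RefSeq TAIR10.1, aligned with MAFFT 7.526, and positions are not printed because the authors' build is TAIR10. The 10 genes and the lists were chosen with earlier results of these data known. All 10 genes were named, any gene of a list could be, and the 3 genes most like the called gene with the largest log2 fold change on this scale (*SCL14*) were added. The alternatives were other pseudocounts, filters, scalings, variance estimates, a replicate block, removal of the length trend and leaving out each sample.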

Additional observations from a re-analysis of the deposited data

How the results depend on the processing

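The number of called genes over all 18966 tested was 5619 and lay between 2872 and 7949 when 1 sample was left out, with the lowest counts without an SNP sample and the highest without mock replicate 1, and the number of the 10 genes called lay between 3 and 6. A fold change limit of 2 left 1474 of 3205 genes under the second rule. Of 170 values of the 10 genes under other settings, 155 kept their direction and their side of the limit, 6 lost and 8 gained a call, and 1 changed sign, *TGA2* at -0.0018 with 75th percentile scaling. With 1 sample left out, *BOP1* ranged from -0.159 to 0.018, *BOP2* from -0.098 to 0.316 and *GSNOR1* from -0.081 to 0.092. The 54 ratios with 1 sample left out moved by less than 1 SD. For these changes the cause was not tested. The replicate numbers were not treated as pairs. Deviations of same-numbered samples had correlations of 0.304, -0.00172 and -0.0910, and mock replicates 2 and 3 correlated best with another number. With so few samples per group, these values cannot tell whether same-numbered samples shared a batch. With the replicate block, 5490 genes and 6 of the 10 were called, with *NPR4* added at an adjusted p of 0.0443. This block also called *PR1* and *PR5*, at adjusted p-values of 0.0282 and 0.0203. The block with the length trend removed gave 7010 genes and 6 of the 10. Removing the length trend alone gave 7319 of 18966 genes and 7 of the 10, with *NPR4* and *TGA5* added, so calls rose over all genes too. Counting error is largest for *TGA1*, with 132 reads in its lowest sample.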
